A study of Mus musculus with 24 samples.

Results

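The heart was set against the brain, kidney and liver of the mouse by the level of histone H3 trimethylated at lysine 4 (H3K4m3). The 2 heart columns of a table of normalized values, 1 from flash-frozen tissue and 1 from tissue fixed in formalin and embedded in paraffin (FFPE), were compared with the 6 columns of the other organs, out of 8 columns in all. Each column is called a library below. The labels list 24 samples, 12 H3K4m3 samples and 12 inputs, with 3 heart H3K4m3 samples among them, 1 frozen and 2 FFPE. No source used here says whether the FFPE column stands for a single FFPE sample or for the pair together. The organs came from mice with no treatment other than preservation named in the labels, and no source used here gives strain, sex or age. All groups share the H3K4m3 immunoprecipitation, while frozen cores were fixed in formaldehyde after harvest and FFPE tissue went through wax removal and heated extraction, so preservation and preparation cannot be told apart.

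H3K4m3 is laid down by Set1 and MLL methyltransferases around the start sites of active genes and of developmental genes held ready for expression. In a whole organ the level at a gene sums over all its cell types. Cardiomyocytes fill most of the volume of the heart, yet many of its nuclei belong to endothelial cells, fibroblasts and other cells between the muscle fibres. In these bulk samples, more cells of a type and more of the mark per cell cannot be told apart. No source used here says over which stretch of a gene reads were counted, so levels are compared between organs and never between genes. Levels are log2 CPM, the count of reads in a gene scaled to a common library size, differences are heart minus the mean of the 3 other organs on that log2 scale with their standard error (SE), and a gene passed when its adjusted p in limma was under 0.05.

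Reads per library ranged from 1792394 in frozen heart to 5275085 in FFPE kidney, and FFPE heart held 3388631. Reads on the mitochondrial genome, which carries no histones, made up 17.0% of FFPE heart, 4.05% of frozen heart and between 3.08% and 11.8% of the other libraries. They are counted in these read totals, and their part in the sizes used for scaling and in the differences was not tested. Neuron, kidney and liver marker lists, of 18 genes each, had 0 members that were higher in heart in limma. At an unadjusted p under 0.05 they had 1, 0 and 0 with a positive difference and 3, 8 and 11 with a negative one.

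Of 25680 genes tested, 661 (2.57%) passed. Heart was higher at 442 genes (1.72%) and lower at 219 (0.853%). Both heart libraries lay above all 6 others at 1073 genes (4.18%) and below them at 618 (2.41%). The genes that passed higher had a median difference of 1.19, with 312 of them over 2-fold and 34 over 4-fold, and the genes that passed lower a median of -1.37. The medians in frozen and in FFPE tissue were 1.34 and 1.06 for the higher genes and -1.66 and -1.08 for the lower genes, values from the same libraries as the calls. No gene passed a test of whether the heart difference depended on preservation (0%, limma with a heart-by-FFPE term), while 1180 genes (4.6%) had an unadjusted p under 0.05 there. Without replicates, that test cannot show that the heart difference was the same in frozen and FFPE tissue. The number of calls rested strongly on single libraries and on the model. Without frozen heart, the shallowest library, 1 gene passed higher, Thbd, the thrombin receptor of vessel walls, and 1 lower, Grb7, while without FFPE heart 102 and 111 passed. Without preservation in the limma model 0 genes passed, with 744 higher and 614 lower at an unadjusted p under 0.05, and without the intensity trend 0 passed, with 1675 and 1620.

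The 4 genes that mark the heart all passed higher. Hand2, a basic helix-loop-helix factor of the ventricles, had levels of 7.37 in frozen and 6.17 in FFPE heart, against a lowest of 2.71, a median of 3.69 and a highest of 4.89 in the other organs. Its difference was 2.99 ± 0.37 (SE; adjusted p = 0.00126). Nkx2-5, the homeobox factor of heart progenitors, stood at 5.00 and 5.19, against 1.11, 2.44 and 3.44 as lowest, median and highest elsewhere. Both heart libraries were thus above the range of the other organs, and the difference was 2.71 ± 0.46 (adjusted p = 0.0081). Actc1, cardiac actin, reached 5.19 and 4.71 against at most 3.11, a difference of 2.70 ± 0.48 (adjusted p = 0.0108). Tnni3, cardiac troponin I, reached 5.96 and 4.76 against at most 3.57, a difference of 2.62 ± 0.51 (adjusted p = 0.0165). For Tnni3, Hand2 and Actc1 the frozen heart library was the higher one, and for Nkx2-5 the FFPE library.

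**Figure D1:**
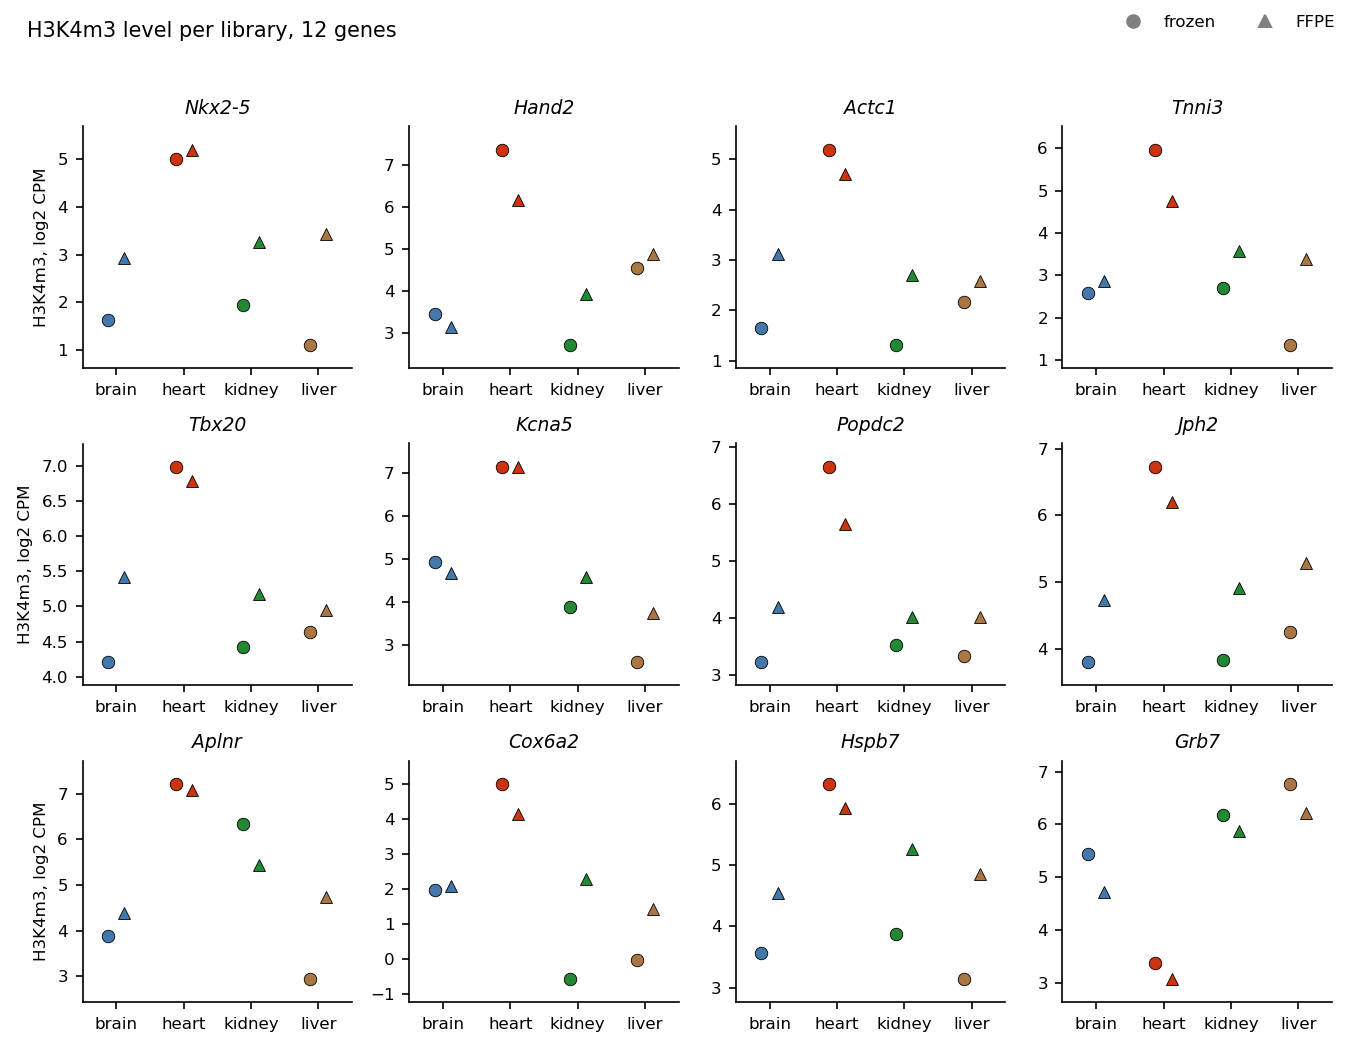
H3K4m3 level (log2 CPM, y axis, scaled per panel) at 12 genes in the 2 libraries of each organ (x axis), circles for frozen and triangles for FFPE. Both heart libraries lie above the 6 others in 11 panels and below them at Grb7, where heart stood at 3.38 and 3.07.

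Promoters of 5 genes with large differences are shown because short motifs of muscle and heart factors can be read in them, and they were picked for holding such motifs. They are the 250 bases before the start site in RefSeq (GRCm38.p6, the assembly that mm10 denotes), written 5′ to 3′ on the strand of the gene. Capitals mark motif matches. A CArG box is the element bound by serum response factor, and capitals mark it in Actc1 and Myl3. A MEF2 site is capitalised in Hspb3, the motif AGATAA of GATA factors on either strand in Hand2, and the motif CATTCC of TEAD factors, called M-CAT, on either strand in Myl3 and Kcna5. The windows are chr2:114052876-114053125 (minus strand) for Actc1, chr9:110763428-110763677 (plus) for Myl3, chr13:113663677-113663926 (minus) for Hspb3, chr8:57320733-57320982 (plus) for Hand2 and chr6:126535556-126535805 (minus) for Kcna5.
Actc1: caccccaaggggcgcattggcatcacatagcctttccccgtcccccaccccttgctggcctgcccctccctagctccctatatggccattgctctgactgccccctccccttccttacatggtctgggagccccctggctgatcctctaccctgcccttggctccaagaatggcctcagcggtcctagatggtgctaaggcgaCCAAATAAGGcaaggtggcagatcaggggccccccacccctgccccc
Myl3: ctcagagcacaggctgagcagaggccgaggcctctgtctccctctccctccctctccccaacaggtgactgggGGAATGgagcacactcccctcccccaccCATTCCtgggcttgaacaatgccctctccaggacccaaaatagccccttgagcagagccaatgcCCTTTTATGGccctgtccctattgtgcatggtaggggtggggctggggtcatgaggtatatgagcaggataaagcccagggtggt
Hspb3: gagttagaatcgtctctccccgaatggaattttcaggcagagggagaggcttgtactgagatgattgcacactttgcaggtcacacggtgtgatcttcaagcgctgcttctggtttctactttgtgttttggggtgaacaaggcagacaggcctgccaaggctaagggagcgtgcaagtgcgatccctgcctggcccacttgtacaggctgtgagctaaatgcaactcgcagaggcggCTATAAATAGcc
Hand2: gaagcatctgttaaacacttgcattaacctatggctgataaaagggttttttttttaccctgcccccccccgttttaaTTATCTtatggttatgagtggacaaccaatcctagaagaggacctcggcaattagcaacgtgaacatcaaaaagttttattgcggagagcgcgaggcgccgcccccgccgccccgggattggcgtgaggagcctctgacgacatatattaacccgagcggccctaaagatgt
Kcna5: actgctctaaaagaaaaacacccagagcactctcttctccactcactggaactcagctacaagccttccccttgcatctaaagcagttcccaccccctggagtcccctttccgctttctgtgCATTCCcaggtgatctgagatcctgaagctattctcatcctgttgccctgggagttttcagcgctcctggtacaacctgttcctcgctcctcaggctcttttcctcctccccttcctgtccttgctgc

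The CArG box of Actc1 begins 47 bases before the start and that of Myl3 85 bases before it. The MEF2 site of Hspb3 begins 12 bases before the start. Of 27025 mouse promoters of the same length, 1.4% held a CArG box, 0.52% a MEF2 site, 10.2% AGATAA and 12.6% CATTCC. Fixed letter patterns for NKX2-5, T-box and ETS factors and, 20 to 45 bases before the start, the TATA box were also searched for and had no match in these windows. Shorter or looser forms of these motifs were not searched for and may be present. Such matches are descriptions of the letters and no evidence of binding. Only 70.8% of the genes that were higher had a promoter in the table used, too few for a comparison of motif frequency over them, and such a check is void.

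Transcription factors of heart development formed the first group. Of 32 cardiac regulators, 8 (25.0%) were higher and none lower, against 1.72% of all tested genes, and the median difference was 0.50. The count was 5 without FFPE heart and 5 to 14 with each library of the other organs left out. Without frozen heart it was 0, as it was for every list below. Tbx20, a T-box repressor and activator of the heart wall, stood at 6.98 and 6.79 against 4.21, 4.80 and 5.42 as lowest, median and highest elsewhere, a difference of 2.09 ± 0.26 (adjusted p = 0.00126). It was higher than each of the 3 other organs taken singly. Gata4 and Gata6, zinc finger factors shared with gut and liver, differed from the mean by 1.75 ± 0.24 (adjusted p = 0.00237) and 1.76 ± 0.22 (adjusted p = 0.00126). Liver was the nearest organ for both, with heart above it by 0.51 and 0.93. Tbx5, the factor whose loss causes Holt-Oram syndrome, differed by 1.71 ± 0.36 (adjusted p = 0.0227), and Myocd, the coactivator of serum response factor, by 1.33 ± 0.28 (adjusted p = 0.0232). The span of Tbx5 overlaps Gm5563, a non-coding gene that passed as well with a difference of 2.34, so reads of the pair cannot be told apart. Ankrd2, a muscle ankyrin repeat protein, went furthest against the list at -0.55 ± 0.42 and did not pass.

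Over whole transcription factor families, 4 of 13 T-box genes (30.8%) were higher (Tbx20, Tbx3, Tbx18 and Tbx5) and 3 of 6 GATA genes (50.0%; Gata2, Gata6 and Gata4). Of all tested genes 1.72% were higher and 0.853% lower. Fox genes gave 6 of 45 higher (13.3%), among them Foxc1 (1.52 ± 0.19, adjusted p = 0.00126) and Foxc2 (1.62 ± 0.20, adjusted p = 0.00126), which pattern mesoderm and vessels. They gave 1 lower (2.22%), Foxq1. For Foxc1, FFPE heart at 7.59 lay just under frozen kidney at 7.63. Of 19 Sox genes 5 were higher (26.3%), led by Sox7, Sox18 and Sox17, the endothelial subgroup of the family, and followed by Sox21 and Sox4 from outside it. Of 17 Krüppel-like factors Klf4, Klf2 and Klf6 were higher (17.6%), while of 39 Hox genes and 19 Wnt ligands none passed in limma. At an unadjusted p under 0.05, 4 Hox genes and 2 Wnt ligands were higher, and 4 and 1 were lower. Without FFPE heart the counts were 2 T-box, 3 GATA, 4 Fox, 2 Sox and 1 Krüppel-like genes. Among 18 epicardial and mesothelial genes, Wt1 (2.17 ± 0.30, adjusted p = 0.00238) and Tbx18 (1.43 ± 0.29, adjusted p = 0.0221) were higher (11.1%). Both mark the epicardium, the outer layer of the heart. The median of that list was 0.50 in frozen and -0.35 in FFPE tissue, so the rest of its members gave no common direction.

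The conduction system and the surface channels of the cardiomyocyte gave 5 of 24 genes higher (20.8%), with a median of 0.36. The count was 2 without FFPE heart and 2 after scaling the libraries to equal spread. Kcna5 encodes the channel of the ultrarapid potassium current that ends the atrial action potential. It stood at 7.13 in frozen and 7.12 in FFPE heart, against 2.60, 4.22 and 4.93 as lowest, median and highest elsewhere, a difference of 3.06 ± 0.28 or 8.35-fold (adjusted p = 0.000181). Popdc2, a membrane protein that binds cyclic AMP in pacemaker and working myocardium, stood at 6.66 and 5.66 against at most 4.19, a difference of 2.44 ± 0.36 (adjusted p = 0.00345). Both were higher than each other organ singly. Tbx3, the repressor that sets nodal identity, passed at 1.08 ± 0.19 (adjusted p = 0.0111), but the liver libraries reached 7.41 and overlapped heart at 7.63 and 7.38. Among 97 potassium channel genes 7 were higher (7.22%) and 3 lower, with 2 higher without FFPE heart and 3 after scaling to equal spread. Kcnj11, the pore of the ATP-sensitive channel, was one of the 7, with a difference of 1.96 ± 0.27 (adjusted p = 0.00237). Its level in brain was close to that in heart, with heart minus brain at -0.29, so its call came from kidney and liver. Of 14 sodium channel genes and 26 voltage-gated calcium channel subunits none passed in limma. At an unadjusted p under 0.05, 1 of each was higher, while 2 sodium and 4 calcium channel genes were lower.

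Calcium handling followed with 4 of 25 genes higher (16.0%), a median of 0.46, and 2 without FFPE heart. Jph2, junctophilin that holds the sarcoplasmic reticulum close to the surface membrane, stood at 6.72 and 6.20 against 3.80, 4.49 and 5.28 elsewhere, a difference of 1.99 ± 0.30 (adjusted p = 0.00383). Hrc, a calcium-binding protein of the reticulum lumen, stood at 6.03 and 6.12 against at most 4.90, a difference of 2.00 ± 0.33 (adjusted p = 0.00608). Pln, the inhibitor of the reticulum calcium pump, differed by 1.32 ± 0.24 (adjusted p = 0.0119). The pump and the release channel themselves did not pass: Atp2a2 had a difference of -0.09 ± 0.17 and Ryr2 of 0.28 ± 0.19. Both are expressed in other organs, and Ryr2 reached its highest level, 7.51, in a brain library. Casq1, named as the calsequestrin of skeletal muscle, passed (1.32 ± 0.32, adjusted p = 0.0424), and the cardiac form Casq2 had nearly the same difference with a larger error (1.32 ± 0.39, adjusted p = 0.0986).

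Receptors and second messengers that set heart rate and vessel tone gave 10 of 35 genes higher (28.6%), with a median of 0.61. The count was 2 without FFPE heart and 2 after scaling to equal spread. Aplnr, the apelin receptor of endothelium and myocardium, stood at 7.22 and 7.08 against 2.94, 4.56 and 6.34 elsewhere, a difference of 2.53 ± 0.36 or 5.78-fold (adjusted p = 0.00321). Kidney was closest to heart there. Pde3a, the cyclic AMP phosphodiesterase that milrinone inhibits, differed by 1.44 ± 0.20 (adjusted p = 0.00296), although FFPE heart at 6.57 lay just under a brain library at 6.60. Its span overlaps Gm10400, a gene that passed as well with a difference of 1.26, so reads of the pair cannot be told apart. Npr1, the receptor for atrial natriuretic peptide, differed by 1.00 ± 0.20 (adjusted p = 0.0202). Both endothelin receptors passed, Ednra at 1.15 ± 0.28 and Ednrb at 0.98 ± 0.20. Adrb1, the main beta-adrenergic receptor of cardiomyocytes, missed the threshold at 0.89 ± 0.23 (adjusted p = 0.0581). Among secreted factors 4 of 26 were higher: Ccn1 and Ccn2, matricellular proteins, Adm, adrenomedullin, and Edn1, endothelin 1. Of the 4, Ccn1, Ccn2 and Edn1 overlapped frozen kidney, at 7.02, 7.2 and 6.01 against 6.68, 6.48 and 5.84 in FFPE heart. The differences of these 4 lay between 0.99 and 1.17, and the count was 0 without FFPE heart and 1 after scaling to equal spread.

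Caveolae are flask-shaped pits of the surface membrane that are dense in cardiomyocytes, endothelium and smooth muscle, and they are built by caveolins in the membrane and cavins on its inner face. All 3 caveolins and all 4 cavins were higher in heart. They belong to a list of 25 genes of caveolae and the dystrophin complex, of which 11 were higher (44.0%), with a median of 0.77. The list count was 6 without FFPE heart and 4 to 11 with each library of the other organs left out. Cav3, the muscle caveolin, stood at 4.92 and 4.21 against -0.03, 2.07 and 2.88 elsewhere, a difference of 2.88 ± 0.64 (adjusted p = 0.0297). Cav1, the form found in most cells with caveolae, stood at 6.56 and 6.71 against at most 5.63, a difference of 1.68 ± 0.20 (adjusted p = 0.00126). Cavin2 differed by 1.73 ± 0.21 (adjusted p = 0.00126) and Cavin1 by 1.31 ± 0.17 (adjusted p = 0.00186). Cavin4, restricted to muscle, differed by 1.84 ± 0.46 (adjusted p = 0.0487). For Cavin3 the heart libraries at 6.83 and 5.53 overlapped kidney, which reached 5.90. Ehd2, an ATPase at the neck of the pit, stood at 6.53 and 6.83 against at most 5.74, a difference of 1.84 ± 0.24 (adjusted p = 0.00204). Itga7, the laminin receptor of muscle, went furthest the other way at -0.53 ± 0.20 (adjusted p = 0.209). Its highest level, 6.74, was in frozen liver. Its span overlaps that of Mettl7b, a gene lower in heart and highest in liver, so reads of the pair cannot be told apart.

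**Figure D2:**
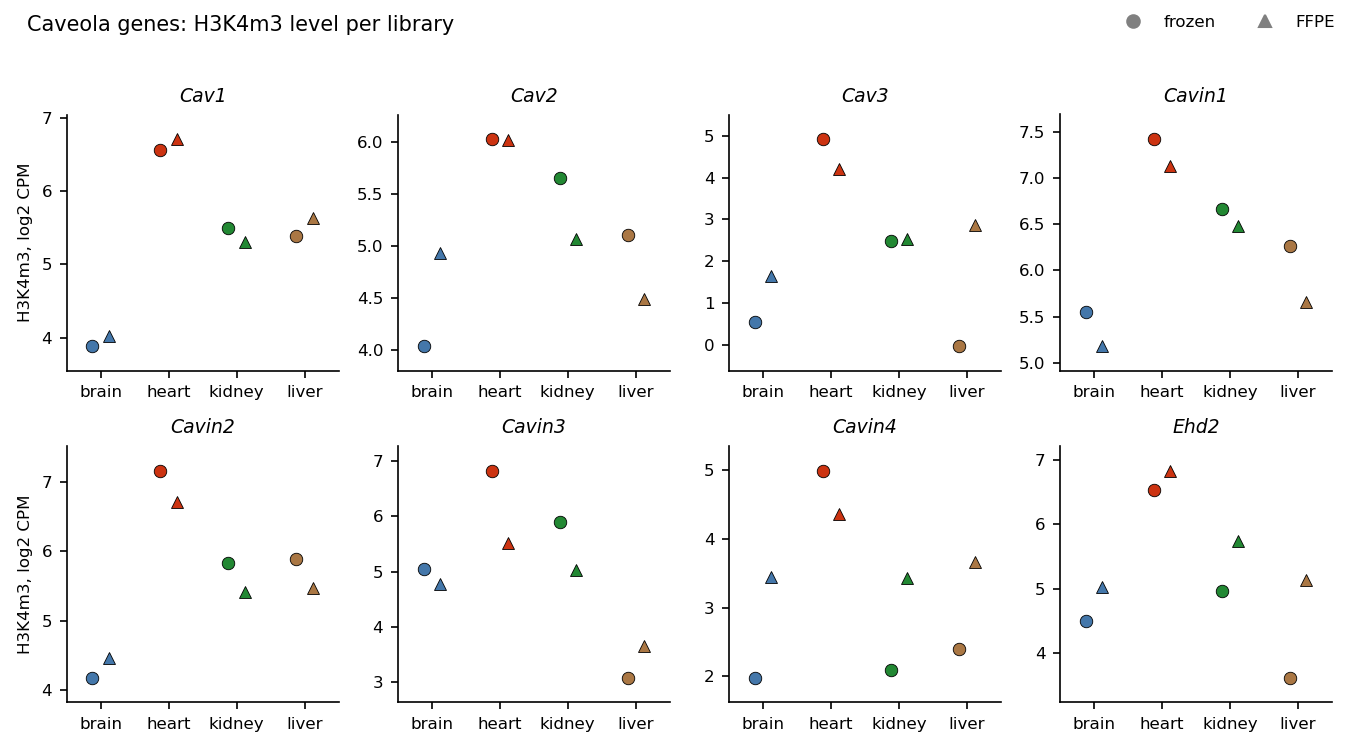
H3K4m3 level (log2 CPM, y axis, scaled per panel) at the 3 caveolins, 4 cavins and Ehd2 in the libraries of each organ (x axis), circles for frozen and triangles for FFPE. Both heart libraries lie above the others in every panel except Cavin3, where FFPE heart at 5.53 lies below a kidney library at 5.90.

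Of 25 genes of the intercalated disc, the junction that couples cardiomyocytes end to end, 4 were higher (16.0%), and 2 without FFPE heart. Gja1, connexin 43, the main gap junction protein of the ventricle, stood at 5.77 and 5.72 against 3.67, 3.99 and 4.36 elsewhere, a difference of 1.72 ± 0.26 (adjusted p = 0.00424), and was higher than each other organ singly. Gja1 is also known from astrocytes, and brain held its highest level outside heart. Des and Synm, intermediate filament proteins, and Flnc, the muscle filamin, were the other 3. Dsg2, a desmosomal cadherin shared with epithelia, had a difference of -0.30 ± 0.28.

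Muscle protein quality control, a list of chaperones, ubiquitin ligases and thin filament length regulators, gave 10 of 30 genes higher (33.3%) and a median of 0.96. The count was 4 without FFPE heart and 4 to 17 with each library of the other organs left out. Small heat shock proteins gave 3 of 10 members of their family. Hspb7, the cardiovascular member, stood at 6.33 and 5.94 against 3.14, 4.21 and 5.27 elsewhere, a difference of 1.92 ± 0.34 (adjusted p = 0.0106). Hspb3, whose promoter holds the MEF2 site above, differed by 2.43 ± 0.48 (adjusted p = 0.0185), with frozen brain at 3.88 closest to heart. Hspb1 differed by 1.39 ± 0.20 (adjusted p = 0.00345), although FFPE heart at 5.92 lay under frozen kidney at 6.36. Klhl38, a Kelch-like adaptor of striated muscle, stood at 5.88 and 5.33 against at most 3.91, a difference of 2.21 ± 0.33 (adjusted p = 0.00365). Unc45b, the myosin chaperone, and Trim54 and Trim55, ubiquitin ligases of the sarcomere, passed with differences of 1.10, 1.70 and 1.52. Sarcomere genes themselves gave 10 of 22, with 6 without FFPE heart, 3 without frozen kidney and 16 without FFPE liver. Genes particular to skeletal muscle gave 0 of 27 in limma, with 0 at an unadjusted p under 0.05, a median of 0.25 and summed levels of 440 to 689 CPM in heart and 269 to 732 elsewhere.

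Of 37 genes of muscle energy supply, 9 were higher (24.3%), with a median of 0.75 and 35 of 37 differences above 0. The count was 2 without FFPE heart and 5 to 16 with each library of the other organs left out. Cox6a2, the heart and muscle form of a cytochrome c oxidase subunit, stood at 5.00 and 4.14 against -0.56, 1.70 and 2.30 elsewhere, a difference of 3.37 ± 0.68 or 10.3-fold (adjusted p = 0.02). It rests on 56 and 57 reads in heart and between 1 and 27 in the other libraries. Cox6a1, the form of most tissues, had a difference of -0.21 ± 0.19. Pgam2, the muscle phosphoglycerate mutase, differed by 2.61 ± 0.50 (adjusted p = 0.016) and Pgam1 by 0.24 ± 0.21. Slc2a4, the insulin-responsive glucose transporter, differed by 1.32 ± 0.31 (adjusted p = 0.0397) and Slc2a1 by -0.51 ± 0.20. Pygm, muscle glycogen phosphorylase, differed by 1.3 ± 0.32 (adjusted p = 0.0482) and the liver form Pygl by -0.50 ± 0.24. These pairs are descriptions of each gene against the other organs, and the difference between 2 paralogs was not tested. Several other muscle forms had positive differences and did not pass, among them Ckm (1.33 ± 0.44, adjusted p = 0.145), Eno3 (1.32 ± 0.34, adjusted p = 0.0582), Cpt1b (1.55 ± 0.64, adjusted p = 0.255) and Cox8b (1.33 ± 0.57, adjusted p = 0.287). Others that did not pass had smaller differences, such as Pfkm (0.60 ± 0.20, adjusted p = 0.153) and Adssl1 (0.07 ± 0.23, adjusted p = 0.931).

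**Figure D3:**
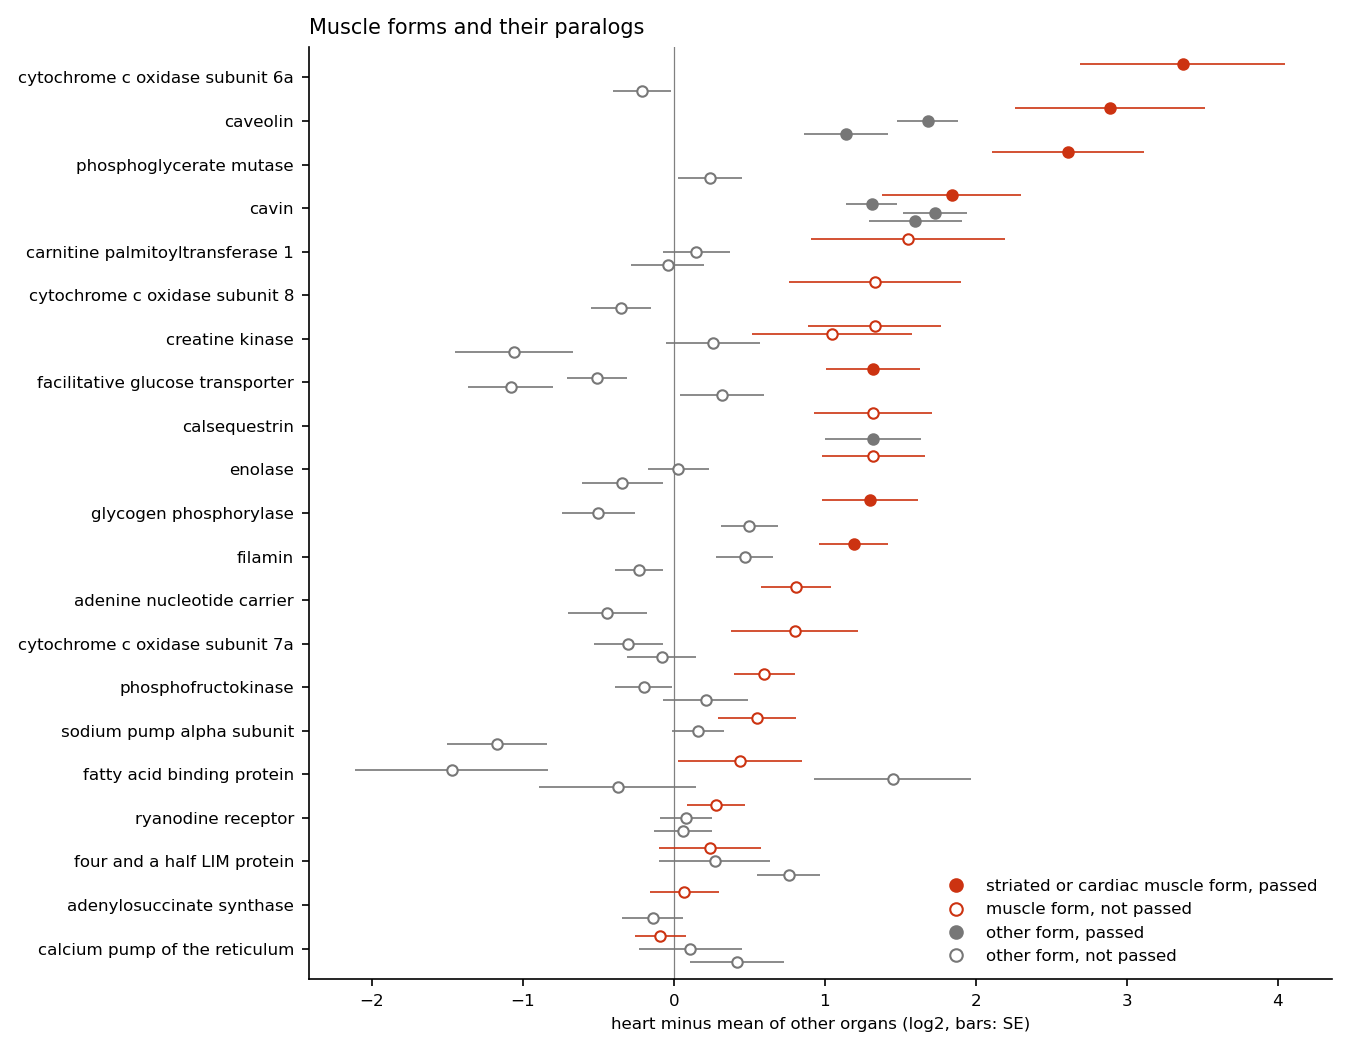
Heart minus the mean of the other organs (log2, x axis, bars show SE) for muscle forms in red and their paralogs in grey, by gene family (y axis). Filled points passed at an adjusted p under 0.05. Cox6a2 at 3.37 is the highest point, and caveolins and cavins are the families in which every form passed.

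For fatty acid uptake, Cd36, the fatty acid translocase (1.56 ± 0.28, adjusted p = 0.0107), and Lpl, lipoprotein lipase (1.37 ± 0.27, adjusted p = 0.0163), were higher. Fabp4, the fatty acid binding protein of adipocytes and capillary endothelium, was higher by 2.05 ± 0.40 (adjusted p = 0.0173). Fabp3, the muscle form of that family, did not pass (0.44 ± 0.41, adjusted p = 0.696). It stood at 4.01 in frozen and 4.19 in FFPE heart, under frozen kidney at 4.54. Of 27 genes of the oxidation pathway itself none were higher in limma, with 0 higher and 4 lower at an unadjusted p under 0.05. Bdh1, which interconverts ketone bodies, passed lower (-0.83 ± 0.20, adjusted p = 0.0429). Of 85 nuclear genes of the respiratory chain only Cox6a2 passed (1.18%), a share close to the background of 1.72%. Of 78 mitochondrial ribosome genes none did in limma, with 1 higher and 2 lower at an unadjusted p under 0.05. Perm1, a muscle regulator of mitochondrial genes, was higher by 1.90 ± 0.36 (adjusted p = 0.0139). Of 15 adipocyte markers 1 passed, Lipe. Their summed level was 566 to 637 CPM in heart and 438 to 1070 elsewhere, and the part of fat cells in these calls was not tested.

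Regulators of vessels gave 19 of 32 genes higher (59.4%), with a median of 1.18 and 7 genes higher than each other organ singly. The count was 10 without FFPE heart and 14 to 24 with each library of the other organs left out. Endothelial markers, with 11 of 16 higher and 4 without FFPE heart, had a summed level of 1285 to 1414 CPM in the heart libraries and 428 to 834 elsewhere, and none was at 0 in heart. The part of endothelial cells in the calls of the vascular regulators was not tested. Klf4, a factor induced by flow in endothelium and active in smooth muscle, stood at 8.11 and 7.46 against 5.47, 5.84 and 7.06 elsewhere, a difference of 1.72 ± 0.17 (adjusted p = 0.00035). Sox7 stood at 6.42 and 6.39 against at most 5.15, a difference of 1.98 ± 0.25 (adjusted p = 0.00126). Tcf15, which with Meox2 drives fatty acid transport in heart capillaries, stood at 5.94 and 5.87 against at most 4.77, a difference of 2.37 ± 0.32 (adjusted p = 0.00237). Meox2 itself differed by 2.16 ± 0.28 (adjusted p = 0.00182). Members of the Notch pathway, Dll4, Heyl and Notch1, were also among the 19. Prox1, the factor of lymphatic vessels that hepatocytes also express, had a difference of -0.20 ± 0.22.

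Extracellular matrix genes gave 10 of 41 higher (24.4%), with a median of 0.57, 1 without FFPE heart and 5 after scaling to equal spread. Lama4, the laminin chain of capillary basement membranes, stood at 7.23 and 6.79 against 5.33, 5.56 and 5.75 elsewhere, a difference of 1.47 ± 0.19 (adjusted p = 0.00202). Lama2, the chain around muscle fibres whose loss causes muscular dystrophy, and Lamb2 were also higher, which made 3 of 11 laminins (1 without FFPE heart). Of 44 collagen genes none passed in limma, with 11 higher at an unadjusted p under 0.05, up to 8 called with 1 library left out, and a median of 0.1, although collagens are the main product of heart fibroblasts. Timp4, a metalloproteinase inhibitor abundant in heart, differed by 1.91 ± 0.39 (adjusted p = 0.0213). In the TGF-beta and BMP pathway 5 of 31 genes were higher (16.1%): the ligands Tgfb1 (1.12 ± 0.18) and Tgfb2 (1.42 ± 0.24), the receptor Tgfbr2, the inhibitor Smad6 and the latency protein Ltbp4. The count was 1 without FFPE heart and 1 after scaling. Fibroblast markers gave 3 of 24, Vim, Dcn and Lum, with a summed level of 895 to 946 CPM in heart and 412 to 760 elsewhere. Smooth muscle and pericyte markers gave 2 of 20, Des and Synpo2, at 700 to 863 in heart and 409 to 726 elsewhere. Both counts were 0 without FFPE heart. Des is also counted with the intercalated disc above. Of the 20 smooth muscle and pericyte differences 19 were above 0, while Tagln was at -0.22 ± 0.39 and did not pass. Macrophage and leukocyte markers gave 1 of 23, Cd14, at 466 to 563 against 290 to 551. Nerve and Schwann cell markers gave 0 of 16 in limma, with 3 higher and 3 lower at an unadjusted p under 0.05. The part of these cells in the calls of matrix and signalling genes was not tested.

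**Figure D4:**
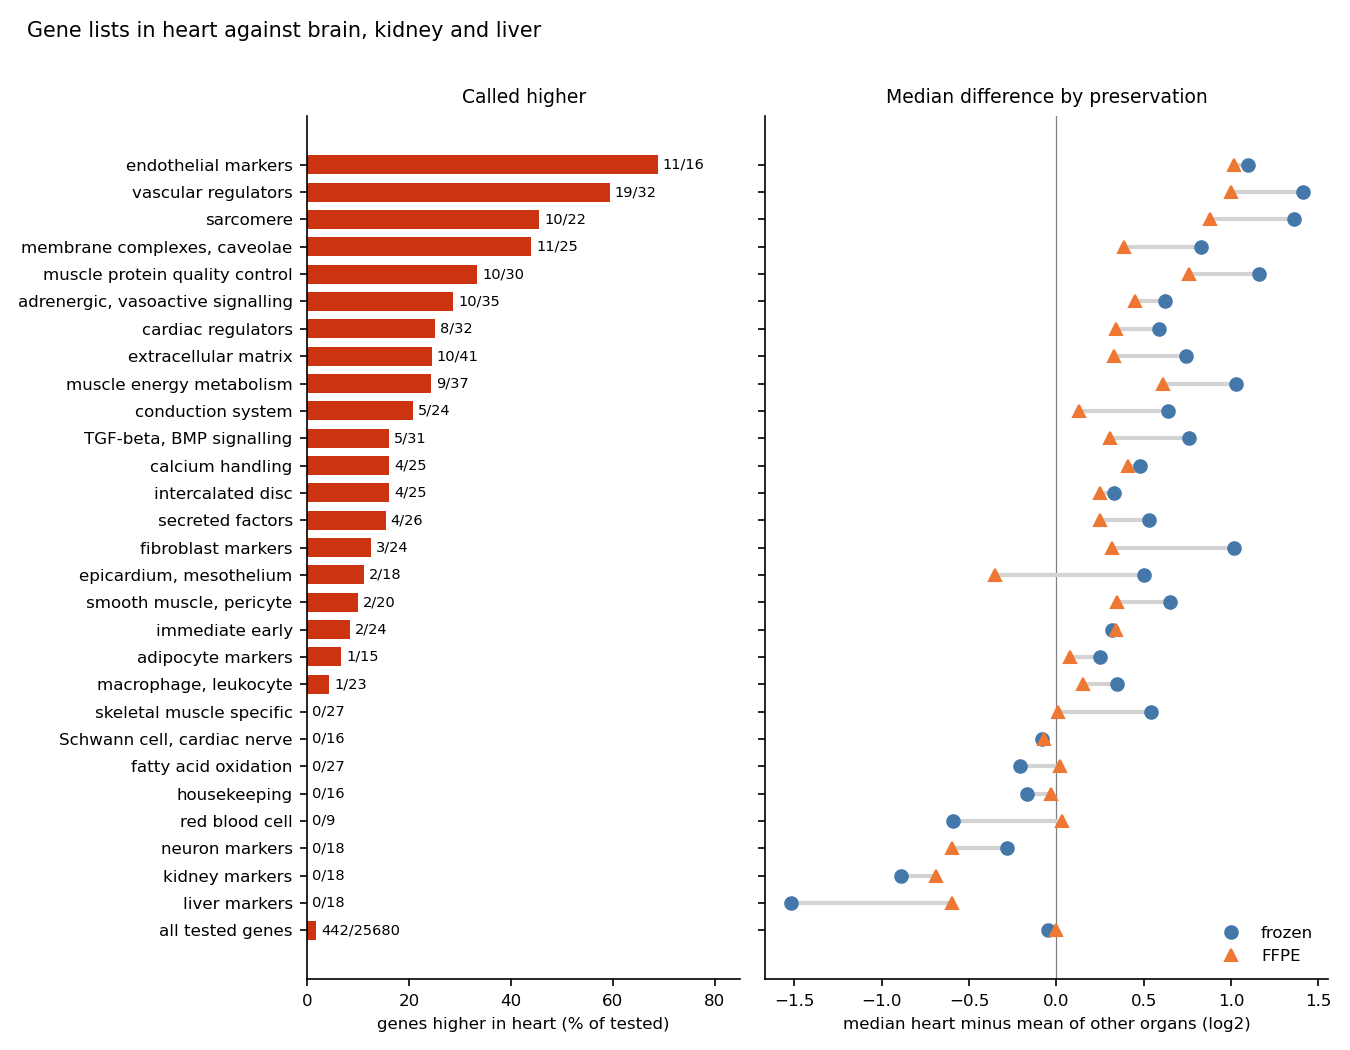
Gene lists (y axis) by the percentage of tested members higher in heart, with counts beside the bars (left), and by the median of heart minus the mean of the other organs (log2, right), circles for frozen and triangles for FFPE. Vascular regulators (59.4%) and caveola genes (44.0%) stand above all tested genes (1.72%), and the epicardial list has medians of opposite sign.

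Non-coding genes added 2 calls among 12 cardiac long non-coding RNAs. Mhrt differed by 3.46 ± 0.63 or 11.0-fold (adjusted p = 0.0119), but its span overlaps Myh7, a myosin gene that passed as well, so reads of the pair cannot be told apart. Mhrt had 27 reads in frozen and 53 in FFPE heart. Both long non-coding genes fell short of the threshold without FFPE heart. Carmn, the host of the smooth muscle microRNAs miR-143 and miR-145, differed by 1.55 ± 0.31 (adjusted p = 0.0204). Of 12 cardiac microRNA genes with enough reads none passed in limma, with 2 higher at an unadjusted p under 0.05. Mir1a-1, a microRNA of striated muscle, had a difference of 3.32 ± 0.95 (adjusted p = 0.0875) on 19 reads in frozen and 11 in FFPE heart.

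Heart differed unequally from the 3 organs. Alone against brain 849 genes were higher in heart (3.31%), against liver 844 (3.29%) and against kidney 103 (0.401%). Among the 442 genes, 336 passed against brain, 333 against liver and 83 against kidney, and kidney was the next highest organ for 260 (58.8%), compared with 30.8% of all tested genes. The 3 contrasts share the heart libraries, and the organ mean and the single contrasts share all libraries. Heart was higher than each of the 3 organs at 47 genes (0.183%). Among them were Kcna5, Hand2, Actc1, Popdc2, Tbx20, Jph2, Hrc, Gja1, Cav1 and Cavin2 of the lists above. Others were the developmental factors Meox2, Msx1, Ebf3 and Hlx and the endothelial surface proteins Thbd and Cd93, which lie next to each other on chromosome 2. Thbd stood at 8.21 and 7.92 against at most 6.88, and Ebf3 differed by 1.75 ± 0.22. Genes that passed higher formed 29 adjacent pairs, among them Cav1 with Cav2 and Dcn with Lum, and in 5 of the pairs the gene spans overlap. The overlapping pairs include Dll4 with Gm14207. Adjacent here means next in the order of tested genes, with up to 92809 bases between them. The number of pairs to be found by the order of genes alone was not worked out, so the count is no measure of clustering. Of 1008 tested genes on the X chromosome 5 were higher (0.496%, against 1.72% of all tested genes).

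**Figure D5:**
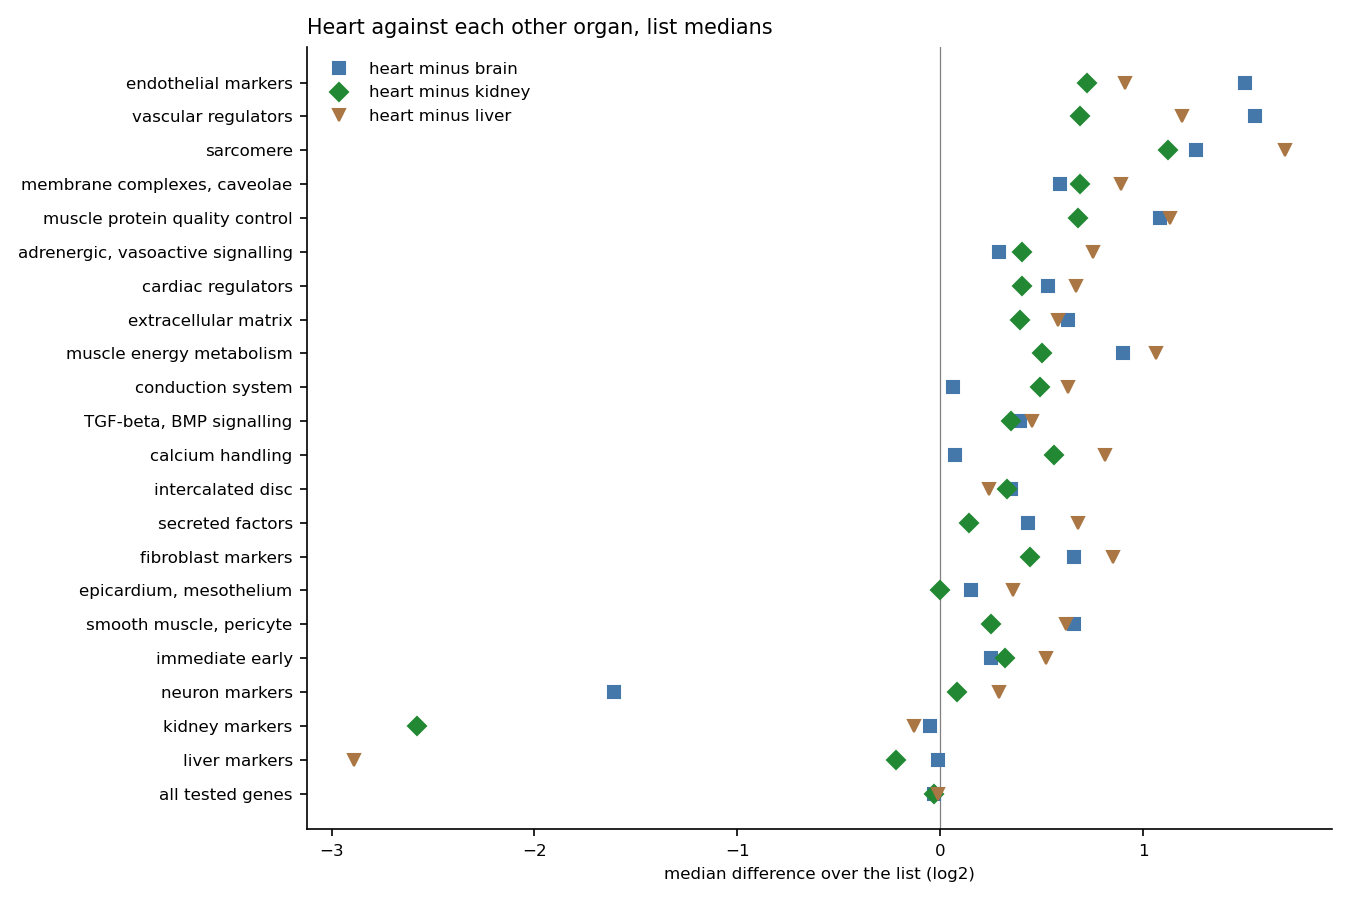
Median over each gene list (y axis) of heart minus brain, heart minus kidney and heart minus liver (log2, x axis). Vascular regulators had medians of 1.55 against brain, 1.19 against liver and 0.69 against kidney, while calcium handling was at 0.07 against brain and 0.81 against liver.

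Genes lower in heart included genes known from epithelia. Cldn2, the claudin that forms water and cation pores in proximal tubules, stood at 2.57 and 2.72 against 3.16, 5.82 and 7.23 elsewhere, a difference of -2.79 ± 0.34 (adjusted p = 0.00126). Kidney and liver libraries were far above it and brain was closest. Grb7, an adaptor of receptor tyrosine kinases in epithelia, stood at 3.38 and 3.07 against 4.72, 6.03 and 6.77, a difference of -2.64 ± 0.21 (adjusted p = 6.84e-05). Grb7 was 1 of 6 genes (0.0234%) that were lower than each organ singly. The others were Sowahb, Tmem229a, Mal2, Rgl3 and Klhdc8a. Mal2, a protein of apical transport in polarised epithelia, stood at 3.13 and 2.91 against at least 4.12. Tight junction and polarity genes also stood in the group of 219, with Ocln at -1.63 ± 0.35, Crb3 at -2.12 ± 0.43, Marveld2 at -0.84 ± 0.19, Marveld3 at -0.93 ± 0.21 and Cgn at -0.82 ± 0.20. These 5 were chosen after their values were seen and form no list. The endothelial claudin Cldn5 was higher in heart, by 1.42 ± 0.25 (adjusted p = 0.0102), and these were the 2 claudins of 23 that passed.

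By organ, liver was the highest of the 3 others at 120 of the 219 (54.8%, against 35.2% of all tested genes), brain at 59 (26.9%, against 34.0%) and kidney at 40 (18.3%, against 30.8%). Of 93 cytochrome P450 genes 5 were lower (5.38%, against 0.853% of all tested genes) and 0 higher in limma. At an unadjusted p under 0.05, 23 were lower and 3 higher. The liver markers Fga, a fibrinogen chain, and Cyp2e1 were lower. Of 1122 olfactory receptor genes, which are mostly silent outside the nose, 6 were lower (0.535%, under the 0.853% of all tested genes) and 0 higher in limma. At an unadjusted p under 0.05, 98 were lower and 14 higher, against 1954 lower and 1891 higher of all 25680 tested genes. Of the 6 that passed lower, Olfr1162 rested on 138 reads over all 8 libraries. Olfactory receptor genes took 0.28% of reads in frozen heart and 0.4% in FFPE heart, within the range of 0.24% to 0.63% of the other libraries.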

How the data were processed

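H3K4m3 immunoprecipitation and sequencing was compared between heart and 3 other mouse organs. The authors deposited log2 values per gene for 8 columns, named by organ and preservation. Per the submitters' processing notes, Bowtie2, featureCounts, limma and mm10 were used, and no source used here gives versions or settings. The columns name no antibody and were taken as H3K4m3 because the table is titled so. The values have the form log2 of reads plus an offset, scaled to CPM, and whole reads could be recovered for 100% of them, to within 0.001. The sizes used for scaling differ from the summed reads. They were 2548833 against 2976029 in frozen liver and 5273320 against 4811825 in FFPE brain. How these sizes were set is not given. Depth limits low genes: a count of 0 allows up to 3 reads, or 1.69 CPM in frozen heart and 0.919 in FFPE heart. These limits cover counting error only. Input libraries were not analysed here.

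Genes with a mean log2 value of at least 0 were tested, 25680 of 27179, on the log2 values as deposited, with limma 3.58.1 (R 4.3.3). Organ and preservation were in 1 linear model with an intensity trend and 3 residual degrees of freedom. A second model added a heart-by-FFPE term and had 2. P-values were adjusted by Benjamini-Hochberg across every gene tested. Nothing in the labels ties libraries to separate animals. With 1 library per organ and preservation type, p-values reflect only how organ differences vary between frozen and FFPE tissue, possibly for technical reasons. They hold no spread among replicates. The heart-by-FFPE term is likewise set against that variation in the other organs. The fits were run on simulated reads in which only heart was changed, by known folds. The simulation held no differences among the other organs or between preservation types, so it does not check how the calls depend on them.

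The comparison, the gene lists and families and the rule for named genes were chosen with earlier results of these data known. Lists are therefore described by counts and medians beside all tested genes, with no test. Named were the 4 markers, the genes with the largest differences among those that passed without overlap and with at least 100 reads, up to 4 members of each list or family with the smallest p, the member most against its list, and muscle forms with their paralogs. Other members that passed are named by gene only or with their values. Symbols, spans and promoters are from RefSeq GRCm38.p6 tables, where 25275 gene IDs matched. Alternatives were other filters, normalizations, weights, models, and leaving out each library. Some genes that passed are not reported here.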

Additional observations from a re-analysis of the deposited data

How the results depend on the processing

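No paired analysis was possible because the columns carry no replicate number and each organ has 1 column per preservation type. The main counts were 442 higher, 219 lower, 47 higher than each organ and 6 lower than each. With no filter on low values, lower genes fell to 125 and genes higher than each organ to 30. Quantile normalization gave 803 higher, 521 lower, 116 higher than each organ and 21 lower than each. Scaling to equal spread gave 230 higher, 23 higher than each organ and 3 lower than each. Precision weights gave 34 lower beside 390 higher, and 3 lower than each organ. Without the intensity trend, with heart against all others as 2 levels, and without the preservation covariate, 0 genes passed in either direction in limma, and the unadjusted p was under 0.05 at 1675, 1074 and 744 higher and 1620, 965 and 614 lower genes. Counts against each organ, higher and lower, were 0 in the first and the last of these.

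With each library left out in turn the counts ranged from 1 to 1194 higher, 1 to 903 lower, 0 to 162 higher than each organ and 0 to 27 lower than each. The lowest counts of higher and lower genes came without frozen heart and the highest without FFPE liver. Without frozen kidney 146 and 39 passed. An arm left with 1 library is assumed to vary like the others. In the 6 alternatives that keep all libraries, the linear model and the intensity trend (no filter, a mean log2 of at least 2, quantile normalization, equal spread, precision weights and log2 of value + 1), 202 of the 442 and 30 of the 219 genes passed in every one. The fit without the trend is not among these 6, and 0 genes passed in it. None of the 661 genes changed sign under any alternative that was run, but this was largely fixed in advance. In this balanced design the filters, the trend, the 2 levels and the preservation covariate cannot alter the difference itself, only its error. The genes were also picked for large differences in these same libraries, so the unchanged sign is no support for the calls. Depth limits the low genes most: Cox6a2, Mhrt and Mir1a-1 have at most 57 reads in each heart library.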
